A study of Mus musculus with 8 samples.

Results

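NF-kB genes were followed in CTL-EN, a T cell line from mouse. The cells expressed the beta common chain of the human GM-CSF receptor, either as the wild type or as the Ser585Gly mutant. The set held the 5 subunit genes of the NF-kB transcription factor and 5 genes of its inhibitors and regulators, chosen by gene symbol. Of these 10 genes, 9 had a probe with 1 gene symbol among the 15096 distinct symbols on the arrays, and each had exactly 1 probe. Nfkb1, the gene of the p105 precursor and the p50 subunit, was not analysed here.

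All cells had been without factor for 12 h in RPMI medium with 0.5% CS (0 h), and stimulated cells were then given 50 ng/mL of human GM-CSF for a further 12 h (12 h). This gave 4 RNA populations, wild type and Ser585Gly at 0 h and at 12 h, which were compared in a square on 8 2-colour oligonucleotide arrays. Each of the 4 edges of the square was hybridised on 2 arrays with the dyes exchanged, and replicate 1 is the array with the first-named RNA in Cy5. By the labels every population carried the introduced human chain, whose own level was not measured here. All 12 h cells had GM-CSF, so effects of the factor and of the added hours cannot be told apart. No label says that the dye swaps came from separate cultures or extracts. The 2 arrays of an edge were therefore averaged as 1 replicate. The p-values rest on how closely the 4 averaged edges close the square, together with a prior from all probes. They do not measure the spread between cultures or between the 2 dye swaps of an edge. A second fit, to all 8 arrays with a dye term, counts the dye swaps as separate replicates.

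NF-kB factors are dimers of subunits that share a DNA-binding domain. In resting cells inhibitors of the IkB family hold the dimers in the cytoplasm, and signals from antigen and tumour necrosis factor receptors lead to destruction of the inhibitors and entry of the dimers into the nucleus. Several NF-kB genes are themselves known targets of the factor, so that the pathway feeds back on itself. In T cells NF-kB is known for its part in activation, cytokine production and survival. The serine changed in the mutant is known as a residue that binds 14-3-3 proteins when phosphorylated and that has been linked to cell survival.

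Promoter windows are shown because 2 NF-kB genes, Bcl3 and Nfkb2, had the highest 12 h over 0 h ratios of the set. Windows of 250 bases before to 50 bases after an annotated start were taken from RefSeq (GRCm38.p6) and were available for 8 of the 9 measured genes. They were searched on both strands for the 10-base kappaB consensus, and capitals mark the matches. A match was present in 2779 of all 32851 windows searched (8.46%). Among the windows of these 8 genes it was present in 8 of 11, of which 2 Nfkb2 windows overlap and share a match. By gene, 6 of the 8 had a match in at least 1 window. The Bcl3 window lies on chr7:19822706-19823005 (minus strand), and its match begins 3 bases after the start. The 2 Nfkb2 windows lie on chr19:46304487-46304786 and chr19:46305445-46305744 (plus strand), around separate annotated starts. In the first Nfkb2 window 2 matches overlap by all but 1 base and a further match lies closer to the start. The Nfkbia window lies on chr12:55492598-55492897 (minus strand), with a match 29 bases before the start.
Bcl3: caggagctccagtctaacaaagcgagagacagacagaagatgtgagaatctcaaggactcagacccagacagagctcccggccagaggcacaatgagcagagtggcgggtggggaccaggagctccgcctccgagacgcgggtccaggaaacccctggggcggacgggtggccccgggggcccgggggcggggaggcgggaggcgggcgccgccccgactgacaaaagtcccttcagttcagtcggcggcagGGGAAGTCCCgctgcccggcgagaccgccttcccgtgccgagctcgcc
Nfkb2, first window: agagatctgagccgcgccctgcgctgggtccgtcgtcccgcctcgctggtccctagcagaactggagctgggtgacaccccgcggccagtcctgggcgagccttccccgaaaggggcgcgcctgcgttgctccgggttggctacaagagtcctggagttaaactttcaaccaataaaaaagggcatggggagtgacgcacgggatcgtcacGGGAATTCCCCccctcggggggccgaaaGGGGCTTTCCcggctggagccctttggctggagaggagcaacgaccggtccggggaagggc
Nfkb2, second window: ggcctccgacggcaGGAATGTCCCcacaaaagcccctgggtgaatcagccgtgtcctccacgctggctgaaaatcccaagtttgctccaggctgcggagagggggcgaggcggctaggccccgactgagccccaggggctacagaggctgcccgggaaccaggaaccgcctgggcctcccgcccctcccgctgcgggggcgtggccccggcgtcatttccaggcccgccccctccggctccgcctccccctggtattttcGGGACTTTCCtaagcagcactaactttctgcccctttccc
Nfkbia: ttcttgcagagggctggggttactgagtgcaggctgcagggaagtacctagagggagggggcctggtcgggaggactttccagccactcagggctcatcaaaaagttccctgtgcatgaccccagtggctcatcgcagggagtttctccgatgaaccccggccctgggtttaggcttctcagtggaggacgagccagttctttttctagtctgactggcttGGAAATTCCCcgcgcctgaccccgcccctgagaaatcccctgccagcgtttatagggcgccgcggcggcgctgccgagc

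The remaining Nfkb2 window, which overlaps the second, held the same match, GGGACTTTCC. The Rel window held overlapping matches that began with GGGAAATCCC, 92 bases before the start. Nfkbie had GGGGGATTCC at 106 bases before its start. In Tnfaip3, GGGACACCCC stood 125 bases and GGAAATCCCC 12 bases before the start of its first window, and its second window held none. No match was found in the windows of Rela and Nfkbib. These matches describe letters in the windows, and binding was not measured.

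The labelled cell type was checked by brightness, the mean log2 intensity of both dyes over the 8 arrays, as a percentile of all spots. A probe was read as above background when it exceeded the 95th percentile of wells named empty. Of 14 T cell markers, 12 had a probe and 11 lay above the empty wells, with Cd3e at the 97.0, Cd3g and Thy1 at the 98.6 percentile and Cd8a and Cd8b1 at 82.3 and 84.0. Cd4 was not above the empty wells (3.39 percentile). Because each probe has its own brightness per transcript, these percentiles show detection and do not rank genes or cell types. The measured myeloid, B cell, erythroid, mast cell and fibroblast markers other than Mcpt1 were also above the empty wells, up to the 86.4 percentile for Col1a1, 76.3 for Hba-a1 and 70.1 for Elane, so brightness did not separate the T cell label from the others. No myeloid, B cell, erythroid, mast cell or fibroblast marker passed the test in any comparison by limma on averaged pairs. At an unadjusted p under 0.05 the mutation at 0 h had the most of these markers, beside 21.7% of all probes. These were 3 of 7 myeloid, 2 of 6 B cell and 2 of 5 fibroblast markers. Erythroid and mast cell markers had 1 of 5 and 1 of 6. None of these lists had more than 2 such genes in another comparison. The fit to all 8 arrays called 1 erythroid marker higher and 1 lower for time in each line, beside 9.61% and 10.5% of probes. For the mutation it called 1 myeloid marker higher at each time, beside 4.01% and 1.73%. Median foreground intensity ran from 639 to 1115 over the arrays and dyes. Across probes, dye-swap arrays correlated at 0.515 and 0.509 for time in wild type and Ser585Gly, and at 0.125 and 0.219 for the mutation at 0 h and at 12 h. Replicate 1 of the 0 h mutation edge stood apart, with a median absolute log2 ratio of 0.326 against 0.144 to 0.200 on the others. All 9 NF-kB probes were above the empty wells, from the 38.8 percentile for Tnfaip3 to the 84.2 percentile for Nfkb2.

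**Figure D1:**
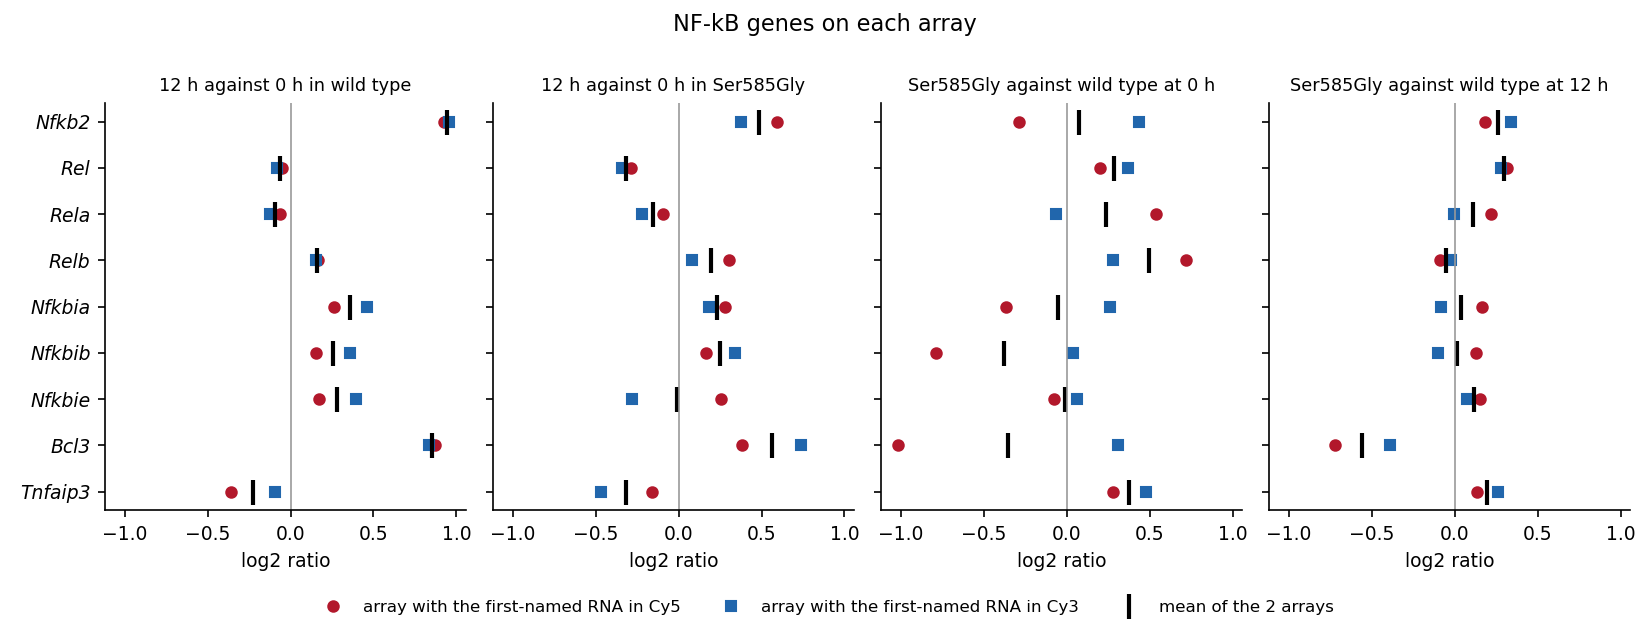
Log2 ratio of each NF-kB gene on each of the 8 arrays, turned so that positive values mean higher in the first-named RNA; circles and squares are the arrays with that RNA in Cy5 and Cy3 and the vertical ticks are their means. Bcl3 and Nfkb2 lie above 0 on all 4 time arrays, whereas the 0 h mutation pair of Bcl3 lies at -1.02 and 0.31, on opposite sides of 0.

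The first comparison addressed how factor-deprived wild-type cells differed after 12 h with GM-CSF. One NF-kB gene passed the test: Bcl3, an IkB family member that acts in the nucleus with p50 and p52 homodimers, rose 1.78-fold. Nfkb2, which encodes the p100 precursor and its p52 product, had a ratio of similar size that did not pass. The ratios of the other 7 genes lay between -0.20 and 0.31 on the log2 scale. The count of 1 of 9 stands beside 3.96% of all 21795 probes called in this comparison, and 2.37% called higher. With all 8 arrays fitted separately 2 of 9 were called, beside 9.61% of probes. An unadjusted p under 0.05 was found for 3 of 9 genes against 21.9% of all probes. The median log2 ratio of the 9 genes was 0.18, against -0.01 for all probes.

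In foreground intensity, the Bcl3 probe of wild-type cells read 2373 at 12 h (Cy5) against 1176 at 0 h (Cy3) on replicate 1. On replicate 2 it read 2844 at 12 h (Cy3) against 1492 at 0 h (Cy5). The normalised log2 ratios were 0.87 and 0.83, so both arrays were high and nearly equal. The fit over the 4 averaged edges gave 0.83 ± 0.11 (SE; 95% interval 0.55 to 1.11; limma, adjusted p = 0.0264), at the 98.7 percentile of all probes. The name Bcl3 rests on the recovered print order, for which the checks on its plate were split. The fit to all 8 arrays with a dye term gave an adjusted p of 0.0227. The call was lost with the direct arrays of the edge alone (0.85, adjusted p = 0.0520). It was also lost without wild-type time replicate 1 (0.61, adjusted p = 0.0692), without wild-type time replicate 2 (1.01, adjusted p = 0.0951), and without replicate 2 of the 0 h mutation edge (0.73, adjusted p = 0.130).

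The Nfkb2 probe read 3589 at 12 h and 1624 at 0 h on replicate 1, and 4251 and 2099 on replicate 2. Its normalised log2 ratios of 0.93 and 0.96 were both above those of Bcl3 on these arrays. The joint fit, which also draws on the other 3 edges, gave 0.78 ± 0.16 (1.72-fold; 95% interval 0.38 to 1.18) with an adjusted p of 0.0626 by limma. Of the 9 other settings 6 passed the threshold, and the fit to all 8 arrays (adjusted p = 0.0231) was one of these. The highest adjusted p among the 9 was 0.0843. Over the 8 omissions of 1 array the Nfkb2 estimate lay between 0.61 and 0.89.

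Among the remaining subunits, Relb, the partner of p52, read 0.16 and 0.15 on the 2 wild-type time arrays and 0.30 ± 0.15 in the fit (adjusted p = 0.322). The fitted Relb ratio, which also draws on the other edges, thus lay above both arrays. Rela, which encodes the p65 subunit, read -0.06 and -0.12, with a fitted -0.08 ± 0.11 (adjusted p = 0.731). Rel, the gene of c-Rel, read -0.05 and -0.08, with a fitted -0.13 ± 0.12 (adjusted p = 0.585). The ratios of Rel and Rela lay just below 0 on both arrays and those of Relb just above, and none passed the test.

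The 3 classical inhibitors had small positive ratios on both wild-type arrays. Nfkbia, the gene of IkB alpha, read 0.26 and 0.46 and had a fitted ratio of 0.31 ± 0.12 (95% interval 0.01 to 0.60; adjusted p = 0.214). Without replicate 1 of the 0 h mutation edge the Nfkbia estimate was 0.38. Nfkbib, the gene of IkB beta, read 0.15 and 0.36, with a fitted 0.16 ± 0.13 (adjusted p = 0.544). For Nfkbie, the gene of IkB epsilon, the readings were 0.17 and 0.39 and the fitted ratio 0.18 ± 0.13 (adjusted p = 0.503). Tnfaip3, which encodes the ubiquitin-editing enzyme A20 that dampens signals to NF-kB, was the regulator with negative readings, -0.36 and -0.09, and a fitted -0.20 ± 0.11 (adjusted p = 0.360).

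**Figure D2:**
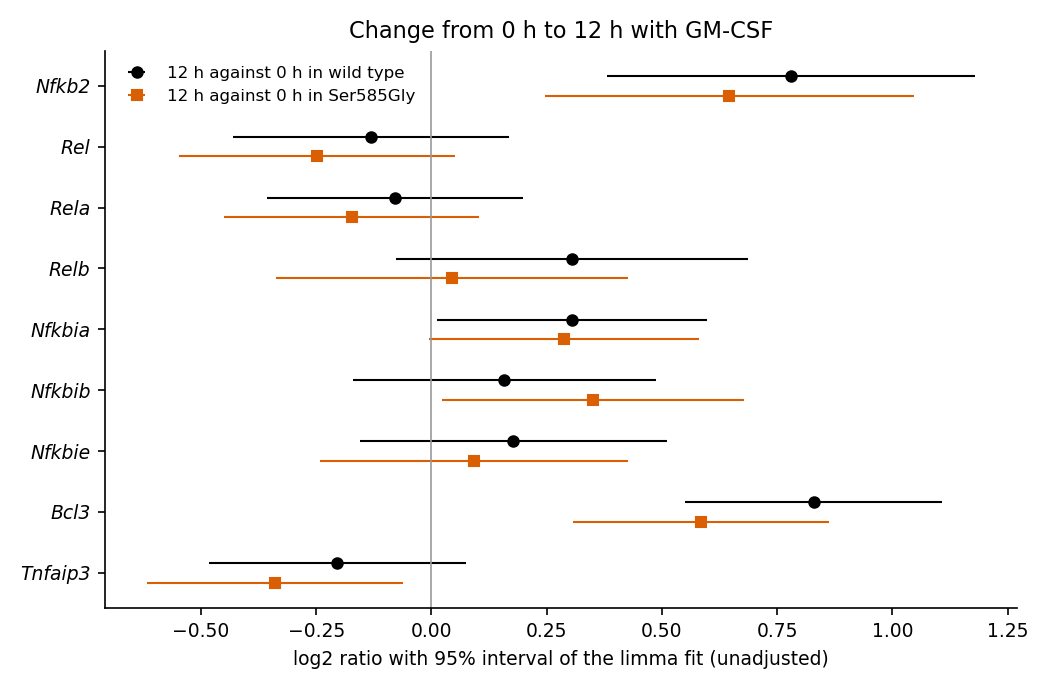
Fitted log2 ratio of 12 h over 0 h for each NF-kB gene in wild-type (black circles) and Ser585Gly (orange squares) cells, with unadjusted 95% intervals of the limma fit to 4 averaged edges. Bcl3 (0.83 and 0.58) passed the adjusted threshold in each receptor line, and Nfkb2 (0.78 and 0.65) passed in neither.

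The same question in cells with the Ser585Gly chain gave 1 called gene of 9, beside 5.03% of all probes called and 3.04% called higher. The fit to all 8 arrays also called 1 of 9, which was Nfkb2, beside 10.5% of probes. The gene called on averaged pairs was again Bcl3, which rose 1.50-fold. The wild-type and Ser585Gly estimates come from one fit and share arrays, so one is not independent of the other. Bcl3 read 0.38 on replicate 1, where the intensities were 1556 at 12 h and 1347 at 0 h. On replicate 2 it read 0.74, with 1820 at 12 h and 1080 at 0 h. Both arrays were above 0, and replicate 2 was the higher. The fitted ratio was 0.58 ± 0.11 (95% interval 0.31 to 0.86; limma, adjusted p = 0.0486). In the fit to all 8 arrays the SE was 0.18 and the adjusted p 0.0737, so the call was lost.

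Scaling between arrays (0.50, adjusted p = 0.0597) and the direct arrays alone (0.56, adjusted p = 0.0976) also ended the Bcl3 call in Ser585Gly cells. It was lost without Ser585Gly time replicate 1 (0.55, adjusted p = 0.120), wild-type time replicate 1 (0.51, 0.0892) or replicate 2 (0.65, 0.136), and replicate 2 of the mutation edge at 0 h (0.68, 0.177) or at 12 h (0.60, 0.0894), where the second value in each pair is the adjusted p. Over all 8 omissions of 1 array the estimate lay between 0.48 and 0.68.

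Nfkb2 read 0.59 and 0.38 on the 2 Ser585Gly time arrays. Its intensities were 2817 at 12 h against 1999 at 0 h on replicate 1, and 4814 against 3729 on replicate 2. Both arrays were above 0 and below the wild-type readings. The fitted ratio was 0.65 ± 0.16 (1.56-fold, 95% interval 0.25 to 1.05, adjusted p = 0.0880), and 0.0436 was the adjusted p with all 8 arrays. That fit was one of 4 among the 9 other settings that passed, and the highest adjusted p among the 9 was 0.257. Over the 8 omissions of 1 array the estimate lay between 0.54 and 0.91.

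For the other 7 genes in Ser585Gly cells the fitted log2 ratios ran from -0.34 to 0.35. Unadjusted p-values under 0.05 were found for 4 of 9 genes, against 21.9% of all probes. The median of the 9 genes was 0.09 and that of all probes 0.01. Nfkbib read 0.16 and 0.34 (fitted 0.35 ± 0.13, adjusted p = 0.203), and Nfkbia 0.28 and 0.18 (fitted 0.29 ± 0.12, adjusted p = 0.235). The fitted Nfkbib ratio, which also draws on the other edges, lay above both of its arrays, whose mean was 0.25. Without Ser585Gly time replicate 2 the estimates of Nfkbib and Nfkbia were 0.45 and 0.41. Tnfaip3 read -0.16 and -0.47, with a fitted -0.34 ± 0.11 (0.790-fold; adjusted p = 0.158). Without replicate 1 of the 0 h mutation edge the Tnfaip3 estimate was -0.35. Rel read -0.29 and -0.34 (fitted -0.25 ± 0.12, adjusted p = 0.309) and Rela -0.10 and -0.22 (fitted -0.17 ± 0.11, adjusted p = 0.436). The Relb readings were 0.31 and 0.08 (fitted 0.05 ± 0.15, adjusted p = 0.899). Nfkbie changed sign between its dye swaps, at 0.26 and -0.28 (fitted 0.09 ± 0.13, adjusted p = 0.753).

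The mutation was compared at 0 h to see how the receptor lines differed after factor deprivation. None of the 9 NF-kB genes passed the test, beside 0.624% of all probes called. The fit to all 8 arrays also called 0 of 9, beside 4.01% of probes. At an unadjusted p under 0.05 there were 3 of 9 genes, which were Tnfaip3, Bcl3 and Rel, against 21.7% of all probes. Tnfaip3 read 0.28 and 0.48 (fitted 0.36 ± 0.11, Ser585Gly over wild type; adjusted p = 0.161). Rel read 0.20 and 0.37 (fitted 0.35 ± 0.12, adjusted p = 0.184). Both genes were above 0 on both arrays. Bcl3 read -1.02 on replicate 1 and 0.31 on replicate 2. These readings were on opposite sides of 0, and the fitted ratio was -0.33 ± 0.11 (adjusted p = 0.177). Leaving out 1 array moved it between -0.63 and -0.01. The averaged fit does not carry this difference between dye swaps into its SE, whereas the fit to all 8 arrays does (SE 0.18, adjusted p = 0.293).

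Other members had similar splits on the 0 h mutation edge, where replicate 1 stood apart over all probes. Nfkb2 read -0.29 and 0.43 (fitted 0.23 ± 0.16, adjusted p = 0.439), Nfkbia -0.37 and 0.26 (fitted 0.00 ± 0.12, adjusted p = 0.994) and Nfkbib -0.79 and 0.04 (fitted -0.28 ± 0.13, adjusted p = 0.289). Without replicate 1 of this edge the Nfkb2 estimate was 0.56. The Bcl3 estimate was -0.36 without Ser585Gly time replicate 2. Rela read 0.54 and -0.07 (fitted 0.22 ± 0.11, adjusted p = 0.315). Relb read 0.72 and 0.28, both above 0 (fitted 0.35 ± 0.15, adjusted p = 0.256), and Nfkbie was near 0 on both, at -0.08 and 0.06 (fitted 0.10 ± 0.13, adjusted p = 0.709). The median of the 9 genes was 0.22, against -0.00 for all probes.

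At 12 h the mutation was again compared, now in cells that had received GM-CSF. None of the 9 genes passed, beside 0.518% of all probes called, and the fit to all 8 arrays called 0 of 9, beside 1.73% of probes. Bcl3 was the 1 gene with an unadjusted p under 0.05, against 11.7% of all probes. Its intensities were 1778 in Ser585Gly and 3217 in wild type on replicate 1, and 2109 and 2489 on replicate 2. The log2 ratios of -0.72 and -0.39 were both below 0, and the fitted ratio was -0.58 ± 0.11 (0.670-fold; 95% interval -0.86 to -0.30; adjusted p = 0.148), at the 1.13 percentile of all probes. Median centring (-0.59, adjusted p = 0.0376) and the deposited value table (-0.49, adjusted p = 0.0367) took Bcl3 past the threshold. The Bcl3 estimate was -0.66 without replicate 1 of this edge and -0.56 without Ser585Gly time replicate 2.

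The fitted ratios of the other 8 genes at 12 h lay between -0.08 and 0.23, with adjusted p-values from 0.521 to 0.985. Rel read 0.31 and 0.28 (fitted 0.23 ± 0.12) and Tnfaip3 0.14 and 0.26 (fitted 0.22 ± 0.11), so both were above 0 on both arrays. Nfkb2 read 0.18 and 0.34 (fitted 0.10 ± 0.16), and Nfkbie 0.15 and 0.08 (fitted 0.01 ± 0.13). Rela read 0.22 and -0.00 (fitted 0.12 ± 0.11), Nfkbia 0.16 and -0.08 (fitted -0.02 ± 0.12), and Nfkbib 0.13 and -0.10 (fitted -0.08 ± 0.13), each split around or at 0. Relb was just below 0 on both arrays, at -0.09 and -0.02, whereas its fitted ratio, which also draws on the other edges, was 0.09 ± 0.15. The median of the 9 genes was 0.09, against -0.01 for all probes.

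The test of whether the time response itself differed between the receptor lines (interaction of mutation and time, limma) called none of the 9 genes and 0 of 21795 probes (0%). At an unadjusted p under 0.05 there were 0 of 9 genes, beside 1444 probes (6.63%). The fit to all 8 arrays called 12 probes (0.0551%) and none of the 9. The interaction was -0.24 ± 0.13 for Bcl3 (95% interval -0.57 to 0.08; adjusted p = 0.747), with the smaller 12 h over 0 h ratio in Ser585Gly. Nfkb2 had -0.13 ± 0.19 (95% interval -0.60 to 0.33; adjusted p = 0.871). Over the 9 genes the adjusted p-values ran from 0.747 to 0.977, and the estimates ran from -0.26 for Relb to 0.19 for Nfkbib.

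**Figure D3:**
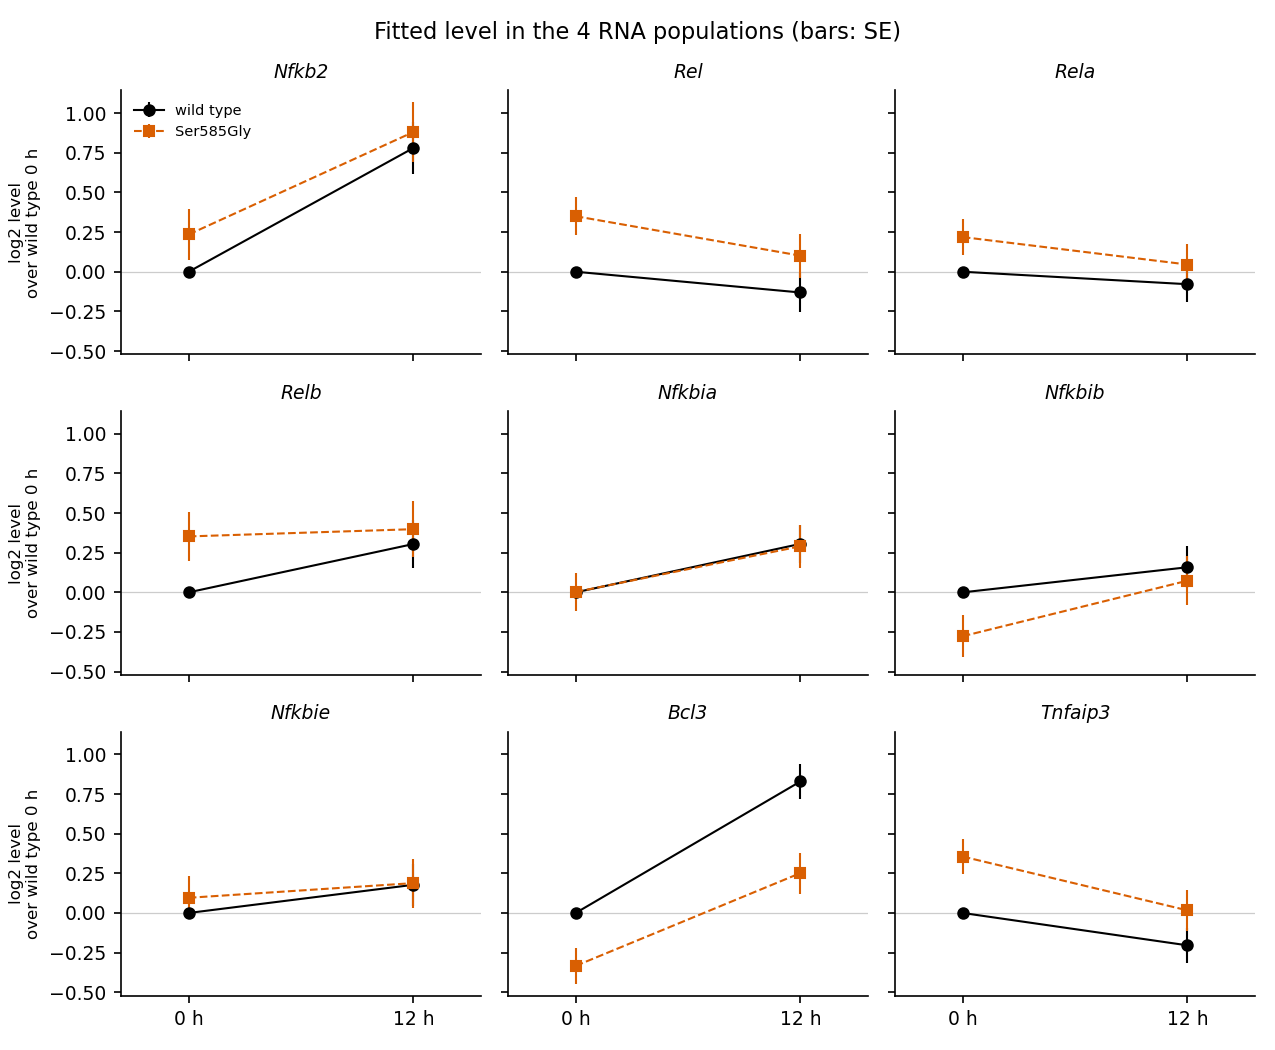
Fitted log2 level of each NF-kB gene in the 4 RNA populations relative to wild type at 0 h, which is 0 by construction; black circles are wild type, orange squares Ser585Gly, and bars are the SE of the difference from wild type at 0 h. Bcl3 runs from -0.33 in Ser585Gly at 0 h to 0.83 in wild type at 12 h, and Nfkb2 from 0 in wild type at 0 h to 0.88 in Ser585Gly at 12 h.

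Placed on one scale relative to wild type at 0 h, the log2 levels of Bcl3 were -0.33 in Ser585Gly at 0 h, 0.25 in Ser585Gly at 12 h and 0.83 in wild type at 12 h. Neighbours in this order did not pass the test, with adjusted p-values of 0.177, 0.309 and 0.148. The ends of the order, picked by their values and therefore given with no test, were 1.16 apart. The low end rests in part on the dye swaps of -1.02 and 0.31 and ran from -0.63 to -0.01 when 1 array was left out. Nfkb2 had levels of 0.23 in Ser585Gly at 0 h, 0.78 in wild type at 12 h and 0.88 in Ser585Gly at 12 h. Its neighbours did not pass either (adjusted p = 0.439, 0.140 and 0.853). On averaged pairs no pair of populations passed for Nfkb2 or for any of the other 7 genes. Among those 7 the widest range belonged to Tnfaip3, highest in Ser585Gly at 0 h (0.36) and lowest in wild type at 12 h (-0.20). Rel had the same ends, at 0.35 and -0.13. Levels of different genes were not set against each other, because each probe has its own brightness per transcript.

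Likeness in pattern was measured as the Euclidean distance over the 4 averaged edge ratios, among 16288 named probes above the empty wells. The probes nearest to Bcl3 were Eif4ebp1 (distance 0.141), which encodes a repressor of cap-dependent translation, Elmo2 (0.160) and Lins1 (0.171). Eif4ebp1 had pair means of 0.79 and 0.66 for time in wild type and Ser585Gly, against 0.85 and 0.56 for Bcl3. For Nfkb2 they were Cipc (0.231), Rbmx (0.238), an RNA-binding protein gene, and Zcrb1 (0.251). For Tnfaip3 they were 4930465M20Rik (0.0459), Mad2l1bp (0.0477) and Hdhd5 (0.0487).

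**Figure D4:**
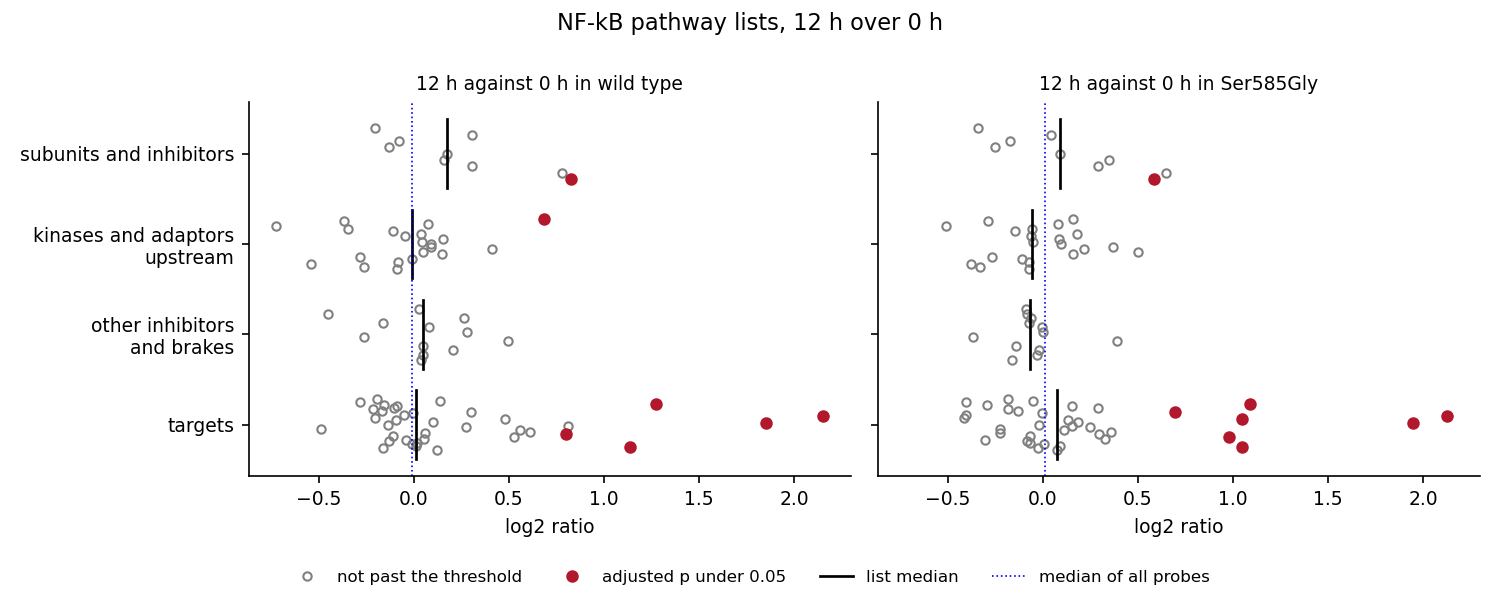
Log2 ratio of 12 h over 0 h for each measured gene of 4 NF-kB lists in wild-type and Ser585Gly cells; filled red points passed the adjusted threshold, black lines are list medians, the dotted blue line is the median of all probes, and vertical scatter only separates points. The called targets lie between 0.69 and 2.15, while the list medians stay within 0.18 of 0.

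The rest of the pathway was read from 3 further lists. Of 27 kinases and adaptors upstream of NF-kB, 21 had a probe. In wild type Traf6, a ubiquitin ligase downstream of interleukin-1 and Toll-like receptors, rose by 0.69 ± 0.11 (adjusted p = 0.0371), and none fell. This 1 of 21 stands beside 3.96% of all probes called and 2.37% called higher. At an unadjusted p under 0.05 there were 7 of 21 for time in wild type, beside 21.9% of all probes. The fit to all 8 arrays called 1 higher and 2 lower, beside 9.61% of probes. The Traf6 ratio in Ser585Gly was 0.16 (adjusted p = 0.477), and its interaction was -0.53 with an adjusted p of 0.736. None of the 21 passed in Ser585Gly or in either mutation comparison by limma on averaged pairs. At an unadjusted p under 0.05 there were 5, 7 and 5 of 21 in those comparisons, beside 21.9%, 21.7% and 11.7% of all probes. The fit to all 8 arrays called 0, 1 and 0 there, beside 10.5%, 4.01% and 1.73% of probes. Ikbkb, which encodes the kinase that marks the inhibitors for destruction, had -0.26 and -0.33 in wild type and Ser585Gly (adjusted p = 0.251 and 0.167). Map3k14, the kinase NIK that drives processing of p100, had -0.28 and -0.27 (adjusted p = 0.225 and 0.247). List medians were -0.01 and -0.06.

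None of the 12 measured genes among 16 other inhibitors and brakes passed in any comparison on averaged pairs. Unadjusted, 2 genes had a p under 0.05 for time in each receptor line, 6 for the mutation at 0 h, 4 at 12 h and 2 for the interaction. The shares of all probes at that threshold were 21.9% for time in each line, 21.7% and 11.7% for the mutation and 6.63% for the interaction. The fit to all 8 arrays called 1 higher and 1 lower for time in wild type, beside 9.61% of probes. It called 2 higher for the mutation at 0 h, beside 4.01%, and 0 elsewhere. The 1 called higher with time was Nfkbiz, an atypical inhibitor like Bcl3. On averaged pairs it had 0.49 in wild type (adjusted p = 0.0847) and 0.39 in Ser585Gly (adjusted p = 0.133). The 1 called lower was Tnip1, with -0.45 in wild type (adjusted p = 0.0929) and -0.08 in Ser585Gly (adjusted p = 0.735) on averaged pairs. List medians were 0.05 and -0.07.

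Among 39 genes known as NF-kB targets, 37 had a probe and all of these but Mmp9 lay above the empty wells. In wild type 5 of 37 rose, beside 2.37% of all probes called higher, and none fell. The fit to all 8 arrays called 8 higher and none lower, beside 9.61% of probes called either way. The 5 were Lta (2.15, adjusted p = 0.00406) and Tnf (1.27, adjusted p = 0.0132), both tumour necrosis factor family cytokines, Il2ra (1.85, adjusted p = 0.00406), an interleukin-2 receptor chain, and the survival genes Bcl2l1 (1.14, adjusted p = 0.0138) and Cflar (0.80, adjusted p = 0.0306). In Ser585Gly 7 of 37 rose, beside 3.04% of all probes called higher, and none fell on averaged pairs. With all 8 arrays 7 were called higher and 1 lower, beside 10.5% of probes called either way. The lower one was Junb (-0.41, adjusted p = 0.0268, and 0.106 on averaged pairs). Lta (2.12), Il2ra (1.95) and Tnf (1.09) had the largest ratios, followed by the transcription factor gene Irf4 (1.05), Bcl2l1 (1.05), the activation marker Cd69 (0.98) and Myc (0.69), with adjusted p-values from 0.00729 to 0.0407. Myc stood outside the limit of 6 genes per list and was named after its values were seen. Many of these genes also respond to other factors. The list medians, 0.01 and 0.08, were close to those of all probes.

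Between the receptor lines 2 targets differed at 0 h: Ccr7, a chemokine receptor gene, was higher in Ser585Gly by 1.11 (adjusted p = 0.0259) and Myc was lower (-1.19, adjusted p = 0.0272). These 2 of 37 stand beside 0.624% of all probes called. An unadjusted p under 0.05 was found for 12 of 37 at 0 h, against 21.7% of all probes. With all 8 arrays, 4 targets were called higher and 2 lower at 0 h, beside 4.01% of probes. At 12 h Irf4 was higher in Ser585Gly by 1.16 (adjusted p = 0.0253). This 1 of 37 stands beside 0.518% of all probes called. An unadjusted p under 0.05 was found for 8 of 37 at 12 h, against 11.7% of all probes. With all 8 arrays, 2 were called higher and 2 lower at 12 h, beside 1.73% of probes. Besides Irf4 these were Ccr7 (0.85, adjusted p = 0.00602), Myc (-0.80, adjusted p = 0.0170) and Bcl2l1 (-0.60, adjusted p = 0.0267), which did not pass on averaged pairs (0.0564, 0.0896 and 0.147). No target passed the interaction test. There, 8 of 37 had an unadjusted p under 0.05, beside 6.63% of all probes, and the fit to all 8 arrays called 0. The 12 measured T cell markers did not move one way with time, and their medians were -0.09 in wild type and 0.00 in Ser585Gly. Cd3e fell by 0.83 in wild type and 0.86 in Ser585Gly (adjusted p = 0.0274 and 0.0242), and Cd3g fell by 0.69 and 0.67 (adjusted p = 0.0371 and 0.0357). Thy1 had positive ratios of 0.69 in both lines (adjusted p = 0.0965 and 0.0943), and Lat 0.49 and 0.50 (adjusted p = 0.0756 and 0.0686, and 0.0265 and 0.0238 with all 8 arrays). The part of these markers in the NF-kB ratios was not tested. In RNA from whole cultures, fewer cells of a type and less RNA per cell cannot be told apart.

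Gene names rest on a print order recovered from the spots, which bears on every value above. In that order the 244 wells named empty had a median brightness percentile of 1.34, against 47.5 in the deposited order. Probes of the same gene on different plates (755 pairs) correlated in time response at 0.364, against -0.0802. On the plate that held Bcl3, Rel and Nfkbie, abundant gene families were brighter than silent ones in 80.4% of pairs in the recovered order and in 86.3% in the deposited order, and the 3 silent probes had a median percentile of 48.9 in the recovered and 12.9 in the deposited order. Both brightness values were thus on the side of the deposited order on the plate of Bcl3. The 36 probe pairs of that plate correlated at 0.273 and 0.127 in time response and at 0.225 and -0.132 in brightness. On the Nfkb2 plate the shares were 100% and 36.4%. The Nfkbia probe was placed by the order but was not nearest to its spot by values, whereas those of the other 8 genes were.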

How the data were processed

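Per the file headers, the deposited scanner values were intensities of spot and local background in both dyes. A second deposited table gave log2 ratios, Cy5 over Cy3, which the authors had not turned for dye. The submitters' processing notes name limma without version or steps. The 21795 non-control probes were placed on spots by the position coded in the probe name, except 16 placed by values only. As a check, that table was compared with the scanner values, and 90.3% of these probes had their spot as the nearest. Names were then moved to the recovered 24-pin print order. Of the probes, 16649 had 1 symbol, 137 several and 5009 none.

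Background was corrected by normexp (offset 50), with loess within arrays (span 0.3, control spots at weight 0). Dye-swap pairs were averaged and limma 3.58.1 in R 4.3.3 fitted mutation, time and interaction over the 4 edges, with 1 residual degree of freedom and 4.69 from the prior. Tests were two-sided, with Benjamini-Hochberg adjustment across all 21795 probes and a threshold of 0.05. Precision is limited by the number of arrays. The script was tested on simulated data.

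Named were all NF-kB genes, genes of each pathway list past the threshold (at most 6 per list and comparison, by size), and the 3 probes most alike to each of the 3 genes with the smallest adjusted p; a few pathway genes that did not pass were named after their values were seen. Members, lists and tests were chosen with earlier results of these data known. The alternatives tried were the fit to all 8 arrays, background subtraction, print-tip loess, median centring, scaling between arrays, the deposited table, direct arrays alone, only bright probes, a trended prior, and each array left out.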

Additional observations from a re-analysis of the deposited data

How the results depend on the processing

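No NF-kB gene past the threshold changed sign under any alternative run. With all 8 arrays fitted, print-tip loess, median centring, scaling between arrays, the deposited table or a trended prior, 2 NF-kB genes passed for time in wild type, and with direct arrays alone 0. For time in Ser585Gly, 2 passed with print-tip loess, median centring or the deposited table, and 0 with scaling or direct arrays alone. For the mutation at 12 h, 1 passed with median centring or the deposited table. Leaving out 1 array gave 0 to 3, 0 to 4, 0 to 1, 0 to 1 and 0 to 0 NF-kB genes for time in wild type, time in Ser585Gly, the mutation at 0 h, at 12 h, and the interaction.

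These counts of NF-kB genes are to be read beside the counts of all probes called under the same setting. The probes tested were 21795, or 21756 with the deposited table. For time in each line, the omission with the most NF-kB genes called was also the omission with the most probes called. Whether the NF-kB genes exceeded the share of all probes was not tested. Counts of probes moved more. For time in wild type (862) they were 2094 with all 8 arrays, 2455 with print-tip loess, 2072 with median centring, 1347 with scaling, 3133 with the deposited table, 277 with direct arrays and 1474 with a trended prior, and 110 to 4263 without 1 array. For time in Ser585Gly (1097) they were 2287, 2727, 2312, 3146 with the deposited table, 337 with direct arrays and 1676 with a trended prior, and 198 to 4396 without 1 array. For the mutation at 0 h (136) the same 7 settings gave 875, 687, 1705, 237, 1510, 56 and 565, and 17 to 3553 without 1 array. At 12 h (113) they gave 377, 350, 526, 213, 1290, 59 and 233, and 40 to 655 without 1 array. For the interaction (0), 12 probes passed with all 8 arrays, 29 with median centring and 2 with the deposited table, and 0 to 35 without 1 array. The cause of these moves was not tested.

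Every gene of the set had 1 probe, so another probe could not be tried. A lone array was corrected by the mean dye effect of the complete pairs and assumed to vary like the others. Arrays were paired only as the dye swaps of an edge. Pairing by culture was not possible because the labels carry no replicate numbers.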
